A study of Mus musculus with 6 samples.

Results

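MHC class II high macrophages were studied in proximal pulmonary arteries (PAs) of young and old C57BL/6J mice by single cell RNA sequencing. They were barcodes that carried the macrophage genes C1qa, C1qb, C1qc or Mrc1, held under 0.1% of their UMIs (unique molecular identifiers, each counting 1 captured RNA molecule) in Lyve1, Folr2, Cd163 and F13a1, and held at least 0.5% in the class II genes H2-Aa, H2-Ab1, H2-Eb1 and Cd74. There were 307 such cells among 1363 macrophages of the same C1q gate (22.5%) and among 15622 cells in all (1.97%). Barcodes counted as cells from 500 UMIs and 300 genes upward, with no more than 20% of UMIs mitochondrial. The gate asked for at least 2 UMIs of the 4 macrophage genes and for more than 2 times the UMIs of 7 genes of other lineages (Cdh5, Myh11, Pdgfra, Cd79a, Cd3e, Msln and Scgb1a1). Members were thus chosen by their measured levels of these genes, which are described below without a test.

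MHC class II molecules display peptides from engulfed material to helper T cells. The alpha and beta chains pair around the invariant chain Cd74, cathepsins cut the invariant chain, and H2-DM exchanges its last fragment for a peptide. The coactivator Ciita switches these genes on together. Arteries and lungs are known to hold macrophages with much class II that sit apart from those with much Lyve1, the hyaluronan receptor of macrophages that line vessels.

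The groups were 2 libraries of young mice and 4 of old mice. Young 1 and young 2 came from mice of 3 months, a male and a female. Old 1, old 2, old 3 and old 4 came from mice of 20, 24, 28 and 27 months, of which old 3 was labelled female and the others were described as male. No treatment was given, each library was taken as 1 mouse, the digest held tissue around the vessel as well as its wall, and the study's remaining young library was not analysed here. Libraries differed in depth, from 6355125 to 50436562 UMIs in all. The members had a median of 1069 UMIs in young 1, 620 in young 2, 2189 in old 1, 1047 in old 2, 6202 in old 3 and 6864 in old 4. The young members were thus shallower than those of old 3 and old 4. Young 1, young 2 and old 2 shared 131 to 215 cell barcodes in each pair, against at most 4 in any other pair, and 3 members carried such a barcode. The cells of old 1, described as male, held 2411 UMIs of Xist, and of the Y-linked genes 2 UMIs of Eif2s3y, 2 of Kdm5d, 15 of Uty and 209 of Ddx3y. The male old 2 had 164 UMIs of Xist and 207, 73, 387 and 468 of these Y-linked genes. The RNA of old 1 went against its description as male except for Ddx3y, and the tests between classes, of age and of shares were also run without old 1.

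Within the C1q gate, members were the cells rich in class II and poor in Lyve1. The class II genes held a median of 2.65% of a member's UMIs in young 1, 4.42% in young 2, 4.02% in old 1, 2.76% in old 2, 3.02% in old 3 and 4.62% in old 4. The same genes held 0.0694% to 0.217% of the free RNA, taken as the RNA of barcodes with at most 50 UMIs. The rule itself keeps members above this background. In all, 26 of the 307 members (8.47%) lay between 0.5% and 1%. The members nearest the limit held 0.507% and 0.508%, and the nearest cells outside it held 0.469% and 0.47%. Cd74, the invariant chain, made up 31.1% to 49.5% of the members' class II UMIs, with H2-Aa, H2-Ab1 and H2-Eb1 sharing the rest. No UMI of Lyve1, Folr2, Cd163 or F13a1 was seen in 228 members (74.3%), and the nearest members under the limit for these genes held 0.0983% against 0.101% in the nearest cells above it. C1q itself was missing from 49 members (16%), which had entered the gate by Mrc1, the mannose receptor.

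**Figure D1:**
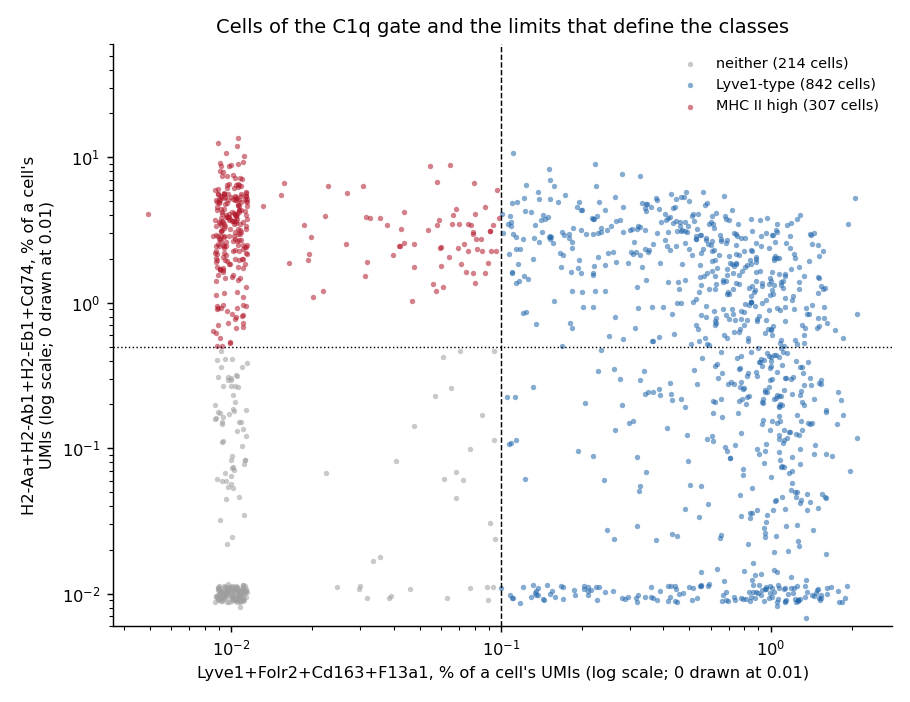
Each point is 1 cell of the C1q gate. The x axis gives the percent of its UMIs in Lyve1, Folr2, Cd163 and F13a1 and the y axis the percent in H2-Aa, H2-Ab1, H2-Eb1 and Cd74, both on log scales with cells at 0 drawn near the low edge, and the dashed and dotted lines mark 0.1% and 0.5%. The 307 members fill the upper left corner, and 442 of the 842 Lyve1-type cells lie above the class II limit too.

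The natural comparison was with the Lyve1-type macrophages, the 842 cells of the same gate with at least 0.1% of UMIs in Lyve1, Folr2, Cd163 and F13a1. Class II RNA was not absent from them: 442 of the 842 also reached 0.5%. Their median class II share was 0.069% in young 1, 1.91% in young 2, 3.18% in old 1, 0.721% in old 2, 0.659% in old 3 and 0.603% in old 4. In old 1, 38 of 46 Lyve1-type cells were over the class II limit, and the medians of both classes were nearest each other there. A further 214 gated cells were in neither class, and 132 cells outside the gate had class II without any gate UMI (C1q-negative MHC II cells), which were used as a second point of reference.

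The share of members varied by library within both age groups. Members were 80 of 240 gated macrophages in young 1 (33.3%, exact 95% interval 27.4% to 39.7%) and 6 of 39 in young 2 (15.4%, 5.86% to 30.5%). They were 44 of 95 in old 1 (46.3%, 36% to 56.8%), 48 of 158 in old 2 (30.4%, 23.3% to 38.2%), 98 of 568 in old 3 (17.3%, 14.2% to 20.6%) and 31 of 263 in old 4 (11.8%, 8.15% to 16.3%). These intervals cover counting error only. Old 1 was highest and old 4 lowest, so the old libraries spanned both young ones. The mean share was 24.4% ± 12.7 (SD, n = 2) in the young and 26.4% ± 15.4 (SD, n = 4) in the old libraries, a difference of 2.08 percentage points (two-sided exact permutation p = 1, where the smallest p this design allows is 0.133). The difference turned to -6.90 without young 2 and to -4.55 without old 1.

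**Figure D2:**
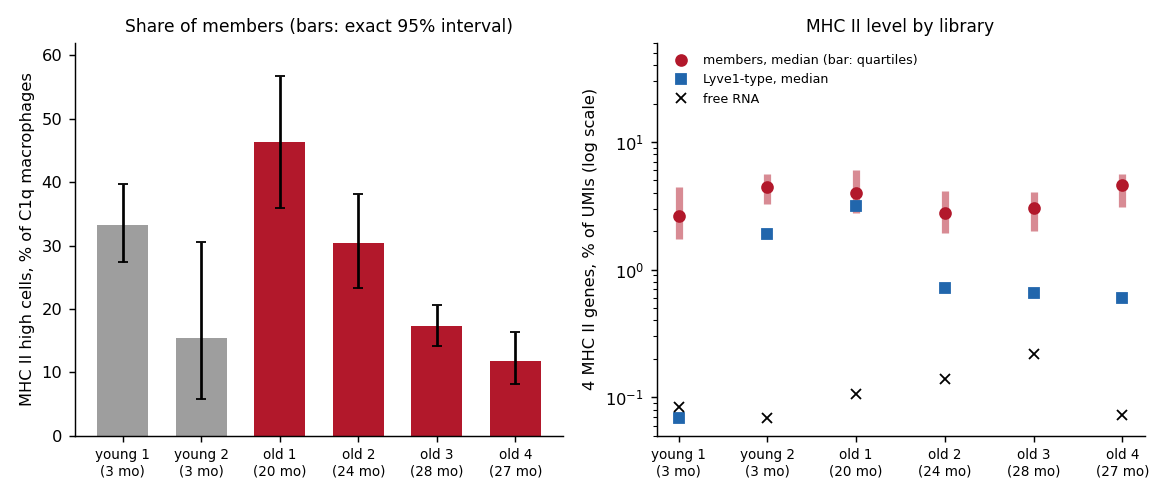
Left, the percent of gated macrophages that were members in each library, with exact 95% intervals that cover counting error only. Right, on a log scale, the median class II percent of UMIs in members (bars span the quartiles of cells) and in Lyve1-type cells, and the level in free RNA, by library. The old libraries run from 11.8% to 46.3% and enclose both young ones.

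To ask what else set these cells apart, UMIs were summed per library and class and compared by edgeR's quasi-likelihood test with the library as a block, in the 5 libraries with at least 10 cells of both classes. Young 2, with 6 members and 8 Lyve1-type cells, was left out of this test, and its values are given in the text. Of 7270 genes tested outside the rule, 581 (7.99%) were higher and 502 (6.91%) lower in members at an adjusted p under 0.05, together 14.9%. In all 5 libraries 588 genes (8.09%) were higher and 622 (8.56%) lower in members. Every library's members were above every library's Lyve1-type cells for 97 genes (1.33%) and below them for 123 (1.69%), and the median log2 fold change was 0.01. Both classes were cut from the same cells by the genes of the rule, so the test compares 2 gates and does not show that they are separate cell types. Without old 3 the counts were 241 higher and 243 lower, without old 4 they were 242 and 255, and without the library block 106 and 111. Below, "rose" and "fell" are of members relative to Lyve1-type cells, levels are in CPM (the UMIs of a gene as a share of all UMIs of its class in that library, scaled to 1000000), and differences are log2 fold changes of the fit with their standard error (SE). CPM are not per length here because the 3' assay counts molecules and not fragments. In members of young 2, 1 UMI is worth 249 CPM, so many of its values rest on few UMIs.

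**Figure D3:**
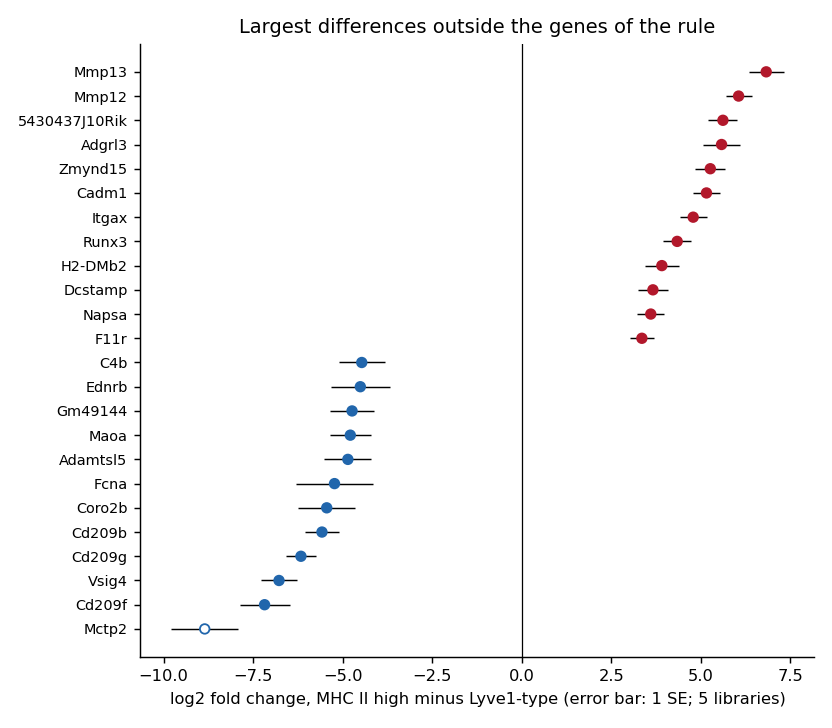
Log2 fold changes of members over Lyve1-type macrophages with 1 SE (5 libraries) for the 12 largest calls in each direction outside the rule. Mmp13 and Mmp12 lie furthest to the right at 6.82 and 6.05. Mctp2, drawn open, had no UMI in members, so its fitted value is no bound.

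Several genes that load class II were higher in members. Of 8 tested genes of class II loading and antigen processing outside the rule, 5 rose and 1 fell. Their median difference was 1.07 on the log2 scale, where it was 0.01 over all genes. H2-DMb1, the beta chain of the peptide exchanger H2-DM, was at 320 CPM in members of young 1, 747 in young 2, 548 in old 1, 238 in old 2, 653 in old 3 and 498 in old 4. Lyve1-type cells of the same libraries had 59.4, 139, 238, 115, 210 and 133 CPM of H2-DMb1. Members were higher in every library, by 1.73 on the log2 scale (SE 0.23, adjusted p = 2.33e-09). The members of young 2, outside the fit, had 3 UMIs of H2-DMb1. H2-DMb2, a near copy of H2-DMb1 whose reads the counting could split, rose by 3.91 (SE 0.47, adjusted p = 1.21e-10). It rested on few UMIs, 4, 0, 3, 8, 55 and 16 in the members of the 6 libraries in the same order. H2-DMa, the alpha chain, rose by 1.23 (SE 0.24, adjusted p = 0.000113), although in old 1 it was lower in members (404 against 491 CPM). Ciita, the coactivator of the class II genes, rose by 1.47 (SE 0.29, adjusted p = 5.53e-05), from 32, 0, 76.9, 79.2, 277 and 196 CPM in members against 9.91, 0, 44.6, 0, 124 and 57.4 CPM in Lyve1-type cells. Ctss, the cathepsin that trims the invariant chain, rose by 0.91, and without old 1 it was at 0.59 with an adjusted p of 0.0596. Lgmn, a lysosomal protease for antigens, fell by 1.35 on the log2 scale (SE 0.21, adjusted p = 5.25e-07). Among 10 genes of MHC class I none was called in either direction by edgeR, and their median was 0.03. Ciita switches the H2-DM genes on together with the class II genes that chose the members. The rise of Ciita and of the H2-DM genes therefore describes the gates. The summed level of the whole class II loading list was 3378 CPM in members and 3933 in Lyve1-type cells of young 1, where Lgmn was at 458 and 2001 CPM. It was higher in members of the other 5 libraries, from 2916 to 5558 CPM against 1393 to 4535.

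Class II genes share a promoter module of an X box and a Y box, which the factors that recruit Ciita bind. Bases upstream of the start in RefSeq on GRCm38.p6 were searched for it, since the class II genes of the rule and the loading genes were high in the same cells. The letters ATGATGC (part of the X box) followed by ATTGG (the Y box core) on the same strand, with 5 to 40 bases between them, were in 35 of 32851 promoters (0.107%) over the 250 bases upstream of the start. ATTGG alone was in 33.8% and ATGATGC alone in 1.99%, counting both strands. The class II chain and loading genes of the MHC that matched the table were 8, with 9 promoters. The pair was in 4 of these genes, namely H2-Eb1, H2-DMb1, H2-DMb2 and H2-Ob. In the following stretches of 130 bases, on the plus strand, from chr17:34305737-34305866, chr17:34153061-34153190 and chr17:34145119-34145248, capitals mark these letters or ATTGG on the other strand.
H2-Eb1: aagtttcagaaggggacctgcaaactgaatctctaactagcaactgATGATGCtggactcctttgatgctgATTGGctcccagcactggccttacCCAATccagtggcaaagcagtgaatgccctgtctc
H2-DMb1: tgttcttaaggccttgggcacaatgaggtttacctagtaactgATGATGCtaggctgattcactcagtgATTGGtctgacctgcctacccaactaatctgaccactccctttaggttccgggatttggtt
H2-DMb2: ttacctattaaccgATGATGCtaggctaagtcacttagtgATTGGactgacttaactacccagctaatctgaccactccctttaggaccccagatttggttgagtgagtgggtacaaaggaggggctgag
ATGATGC begins 84 bases before the start of H2-Eb1, 87 before that of H2-DMb1 and 116 before that of H2-DMb2, each time with ATTGG on the side of the gene. A match describes letters and not binding. The letters were chosen after these promoters had been read, and H2-Ab1, Ciita and Ctsh had no entry.

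The largest rises outside the rule were of matrix proteases. Mmp12, macrophage elastase, which cuts elastin, was at 192 CPM in members of young 1, 249 in young 2, 808 in old 1, 15.8 in old 2, 307 in old 3 and 301 in old 4. In Lyve1-type cells of the same libraries it was at 9.91, 0, 0, 0, 7.58 and 1.38 CPM. Members lay above in every library and every member library of the test was above every Lyve1-type library, by 6.05 (SE 0.36, adjusted p = 1.29e-22). In the 5 libraries of the test, members had 378 UMIs of Mmp12 and Lyve1-type cells 24, while the members of young 2 and of old 2 had 1 UMI each. Mmp13, a collagenase, had 2, 1, 23, 4, 25 and 92 UMIs in members, 146 UMIs in members of the test's libraries against 5 in Lyve1-type cells, and rose by 6.82 (SE 0.49, adjusted p = 1.04e-20). Old 4 alone held 92 of these UMIs, and the call of Mmp13 held in each fit that left out 1 library. Mmp14, a membrane-bound protease, rose by 3.38 and Mmp19 by 1.76, each on few UMIs outside old 3. Of the 12 tested genes of matrix and growth factors, 6 rose and 2 fell, with a median of 1.17. Pdgfb, a growth factor for smooth muscle, rose by 1.90 (SE 0.32, adjusted p = 1.64e-06). Pdgfc and Igf1, also growth factors for mesenchymal cells, fell by 4.29 and by 1.40 on the log2 scale. Members thus held more of 1 PDGF gene and less of another. Old 3 had Tgfbi, a matrix protein induced by TGFb, at 631 CPM in members and 572 in Lyve1-type cells, and it was not called (-0.69, adjusted p = 0.215).

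Promoters of several of these genes carried the AP-1 letters TGAGTCA (or TGACTCA, the same site on the other strand), a site known from protease genes. These letters were in 4.46% of all promoters, in 4 of the 8 matched genes among the 12 largest rises (Mmp12, Mmp13, Itgax and F11r) and in 2 of the 10 matched among the 12 largest falls (Cd209f and Cd209g). Stretches of 100 bases on the plus strand are shown for the first 3, from chr9:7347274-7347373, chr9:7272414-7272513 and chr7:128129450-128129549, with the letters in capitals.
Mmp12: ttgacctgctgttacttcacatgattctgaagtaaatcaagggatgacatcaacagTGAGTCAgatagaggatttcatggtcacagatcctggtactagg
Mmp13: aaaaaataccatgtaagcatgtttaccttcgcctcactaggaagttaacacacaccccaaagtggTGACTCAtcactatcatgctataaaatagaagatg
Itgax: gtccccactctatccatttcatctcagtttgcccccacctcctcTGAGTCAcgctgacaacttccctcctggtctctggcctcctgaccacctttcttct
The letters begin 44, 35 and 56 bases before the start. Mmp12 has a further start in the table, without the letters. The 8 matched rises had 12 promoters there and the 10 matched falls had 10. Their counts are of genes, whereas the 4.46% is a share of promoters.

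Several surface and regulatory genes of myeloid cells were higher in members than in Lyve1-type cells. Itgax (CD11c), an integrin chain of dendritic cells and some macrophages, was at 53.3, 0, 86.6, 174, 204 and 155 CPM in members and at 9.91, 0, 0, 0, 4.69 and 9.67 CPM in Lyve1-type cells. It rose by 4.78 (SE 0.38, adjusted p = 8.5e-19), with no overlap between the classes in the libraries tested. Cx3cr1, the fractalkine receptor, was at 192, 249, 221, 269, 158 and 251 CPM in members against 99.1, 0, 126, 68.7, 15.2 and 15.9 CPM. The 249 CPM of young 2 were 1 UMI. In the libraries tested, Cx3cr1 ran from 158 to 269 CPM in members and from 15.2 to 126 in Lyve1-type cells, and it rose by 2.66 (SE 0.52, adjusted p = 0.00971). Ccr2, the receptor by which monocytes leave the marrow, was at 416, 1244, 96.2, 238, 814 and 858 CPM in members and at 89.2, 557, 96.6, 115, 445 and 225 CPM in Lyve1-type cells. In old 1 both classes had the same level of Ccr2, and it rose by 1.38 over the libraries (SE 0.24, adjusted p = 8.22e-06). Cadm1, an adhesion molecule, rose by 5.15, Runx3, a transcription factor of lymphoid and dendritic cells, by 4.34, and Adgrl3, an adhesion receptor, by 5.58. These differences are from Lyve1-type cells only: at 500 UMIs per cell, Cadm1 was in 9.12% of members and 9.09% of C1q-negative MHC II cells, Runx3 in 4.89% and 5.30%, and Ccr2 in 17.3% and 28%. Dcstamp, needed for fusion of macrophages and osteoclasts, rose by 3.66, Napsa, an aspartic protease, by 3.60, Zmynd15 by 5.26 and the unannotated gene 5430437J10Rik by 5.61. F11r, a junction protein, rose by 3.35, and old 2 alone held 69 of its UMIs in members (1093 CPM against at most 77.6 in any other library).

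Lists for related cell types were counted whole. Of 7 tested monocyte genes 4 rose and none fell (median 1.05): S100a4 by 1.49, Fn1 by 1.40, Ccr2, and S100a6 by 1.05. The call of Fn1 was lost without old 1 (1.29, adjusted p = 0.113) and without old 3 (1.23, adjusted p = 0.0949). Of 6 tested dendritic cell genes 2 rose, Itgax and Batf3 (median 0.60), and Batf3 was lost without old 3 (1.01, adjusted p = 0.12) or old 4 (0.98, adjusted p = 0.0881). The list's summed level was 320, 498, 269, 602, 882 and 890 CPM in members, while in C1q-negative MHC II cells it ran from 952 to 2204 CPM. Of 3 tested alveolar macrophage genes, Ear2, a ribonuclease with close copies, rose by 2.50 and Fabp5 by 1.30. Fabp5 was lost without old 1 (1.06, adjusted p = 0.0598), old 2 (1.18, adjusted p = 0.0706) or old 4 (1.01, adjusted p = 0.0811). Of 7 tested genes of lipid-associated macrophages, Lpl (lipoprotein lipase) rose by 2.12, Lgals3 (galectin 3) by 1.46 and Fabp5 rose, while Apoe fell (median 1.30). Of 16 tested genes that the study named for its myeloid cells, 3 rose and 3 fell (median -0.22), and since the study chose them on these samples they are not independent evidence of a direction. Neither of 2 tested proliferation genes was called by edgeR.

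**Figure D4:**
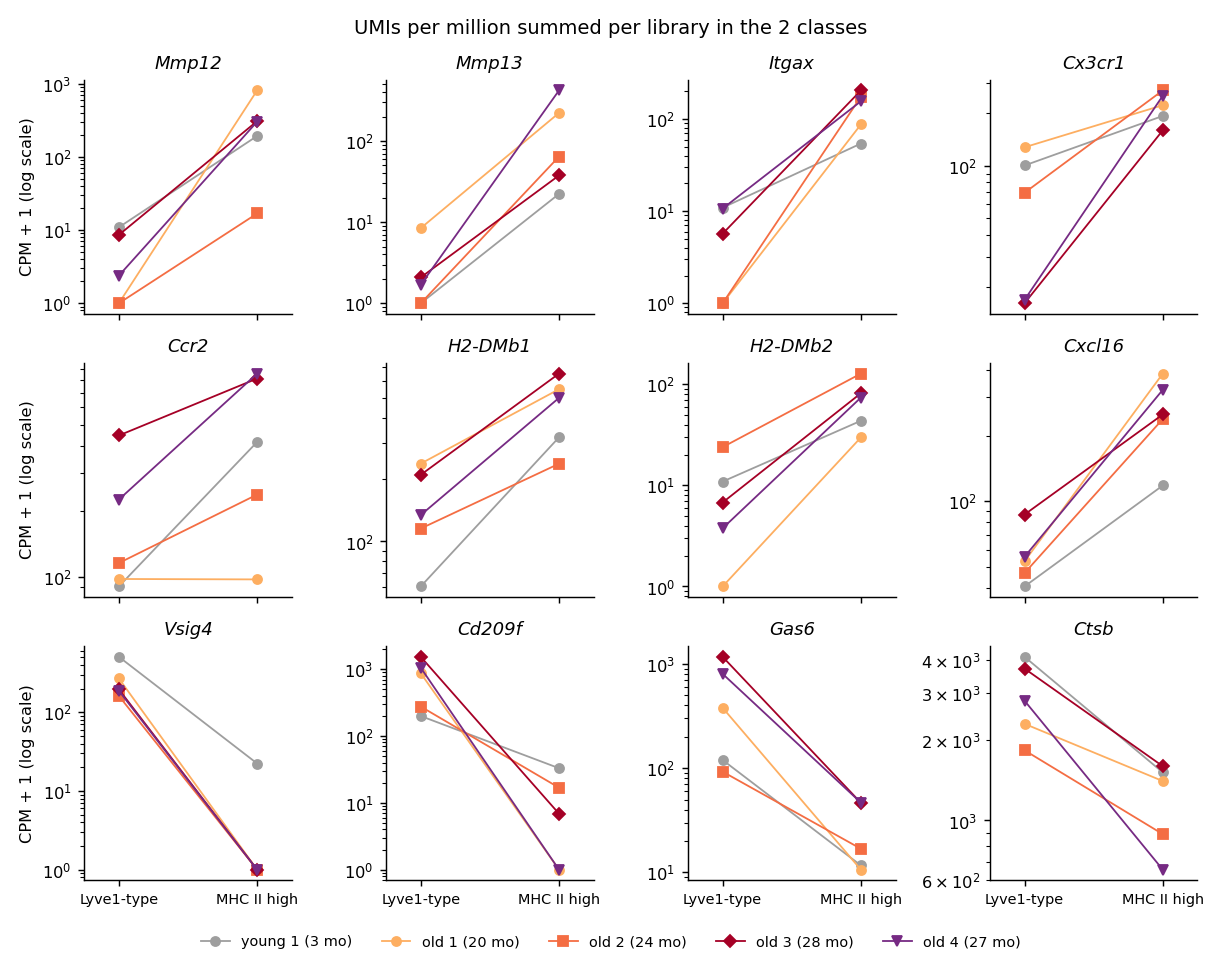
CPM plus 1 on a log scale for 12 genes in members and in Lyve1-type macrophages, 1 point per library and lines joining the classes of 1 library, in the 5 libraries tested. Mmp12 lies between 15.8 and 808 CPM in members and at most 9.91 in Lyve1-type cells.

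Cells were also thinned to 500 UMIs each so that shares of cells with a UMI could be read at 1 depth, with no member lost. Cd52, a leukocyte surface peptide, was seen in 49.8% of members, 12% of Lyve1-type cells, 64.4% of C1q-negative MHC II cells and 0.406% of 4431 smooth muscle or airway cells, which should lack it. Unthinned, it was seen in 79.2% of members (median 1752 UMIs), 41.9% of Lyve1-type cells (4687 UMIs) and 1.44% of smooth muscle or airway cells (7479 UMIs). Mmp12 was seen in 12.1% of thinned members (37 cells) and in 0.238% of Lyve1-type cells. Unthinned, it was in 1.52% of C1q-negative MHC II cells and 0.0226% of smooth muscle or airway cells. By library 11.3%, 16.7%, 25%, 0%, 12.2% and 12.9% of thinned members had Mmp12, and unthinned it was in 72 members (23.5%). Cells without a UMI at these depths may still express it. Mmp13 was in 5.54% of thinned members. Unthinned, it was in 35 members (11.4%) and 3 Lyve1-type cells (0.356%).

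With libraries pooled, some core macrophage genes sat at levels between those of both references and others were highest in members. In thinned cells, Ctss was in 46.6% of members, 35.3% of Lyve1-type and 28.8% of C1q-negative MHC II cells, and Tyrobp in 57.3%, 39.1% and 46.2%. Ms4a7 was in 14%, 11.5% and 0.758%, and Cx3cr1 in 9.45%, 1.78% and 5.30%. After thinning, Apoe, the lipid carrier, was in 36.5% of members, 88.1% of Lyve1-type and 8.33% of C1q-negative MHC II cells, with 10.4% in smooth muscle or airway cells. Csf1r, the receptor on which macrophages depend, was in 18.2% of members, 37.3% of Lyve1-type and 6.06% of C1q-negative MHC II cells, and Adgre1 (F4/80) in 15.3%, 22.8% and 3.03%. These shares pool libraries, and most Lyve1-type cells came from old 3 (425 of 842) and old 4 (229). In old 1 (15.9% against 8.70%), old 2 (12.5% against 2.70%) and old 4 (29% against 27.1%) more members than Lyve1-type cells had Adgre1. In the other libraries fewer members had it. Csf1r was near equal in old 1 (15.9% against 15.2%) and old 2 (14.6% against 16.2%) and in fewer members elsewhere. Flt3, the growth factor receptor of dendritic cells, was in 0.977% of members and 9.09% of C1q-negative MHC II cells, Plac8, a monocyte gene, in 0.977% and 17.4%, and Ccr7, the receptor of migrating dendritic cells, in 0.326% and 1.52%. Unthinned, Flt3 was in 15 members, Ccr7 in 2 and Xcr1, a marker of cross-presenting dendritic cells, in 1. Other genes known from dendritic cells were about as frequent in members as in C1q-negative MHC II cells, with Itgax in 6.52% and 6.82% and Cd209a, a lectin, in 4.56% and 6.06%. Macrophage markers and some genes shared with dendritic cells were thus both present in members. Of 14 tested core macrophage genes 4 rose and 6 fell (median -0.36). Cx3cr1 rose, and Apoe fell by 1.77 and Mertk, a receptor for the uptake of dying cells, by 1.44 in each fit that left out 1 library. Ctss, Ms4a7 (0.84) and Tyrobp (0.71) rose too, but each was lost in at least 1 of those fits. Adgre1 fell by 0.60 on the log2 scale, a call lost in 4 of those 5 fits (-0.54 to -0.71, adjusted p = 0.0835 to 0.102).

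What fell was the program of the Lyve1-type cells, given here with UMIs summed over the 5 libraries of the test where a sum is given. None of its 21 genes outside the rule rose, 18 fell and the median was -3.34. These genes were chosen as companions of the genes that defined the comparison, so their direction describes the gates. Cd209f, a lectin of the DC-SIGN family, had 3, 0, 0, 1, 4 and 0 UMIs in members, and 5911 UMIs were in Lyve1-type cells against 8 in members (-7.18, SE 0.70, adjusted p = 8.24e-05). Cd209g (-6.17) and Cd209b (-5.58) were similar, and reads of these near copies could be split between them. Vsig4, a complement receptor of resident macrophages, had 2 UMIs in members, both in young 1, against 902 in Lyve1-type cells, a pooled ratio of 0.00859 (95% counting interval 0.00104 to 0.0311). Mctp2, a membrane protein, had no UMI in members and 504 in Lyve1-type cells, at least 43.4-fold lower against a floor of 3 counts over the group. Fcna, a ficolin that starts the lectin pathway of complement, fell by 5.23, and the call was lost without old 1 (adjusted p = 0.101), old 2 (0.0695), old 3 (0.17) or old 4 (0.13), with values from -5.69 to -4.43. Maoa (monoamine oxidase), with 3 UMIs in members, Adamtsl5 with 2, Gm49144 with 3 and Coro2b with 1 also fell. Ednrb, an endothelin receptor, fell by 4.51, and was lost without old 1 (-4.63, adjusted p = 0.0576) and old 3 (-3.86, adjusted p = 0.186). Pf4, a chemokine stored in platelets and made by resident macrophages, was at 426, 498, 654, 475, 182 and 214 CPM in members and 1555, 3483, 2735, 4467, 853 and 2559 CPM in Lyve1-type cells. It fell in every library, by 2.51 on the log2 scale (SE 0.23, adjusted p = 7.67e-15).

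Lysosomal and complement genes were lower too. Of 11 lysosome genes 7 fell and none rose (median -0.69). Ctsl fell by 1.36, Ctsb by 1.24 and Grn, the precursor of lysosomal granulins, by 1.12, and these 3 held in each fit that left out 1 library. Of 7 tested complement genes 5 fell (median -0.72), among them C4b, a near copy of C4a and the source of the C4 protein, by 4.47. C4b had 1, 0, 0, 3, 88 and 0 UMIs in members, nearly all of them in old 3. Its levels in Lyve1-type cells were 337, 836, 765, 664, 1422 and 871 CPM, above those of members in all 6 libraries.

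Cytokines did not move one way. Of 16 tested genes 3 rose and 2 fell (median 0.50). Cxcl16, a chemokine that is also a scavenger receptor, was at 117, 249, 385, 238, 249 and 324 CPM in members and at 39.6, 139, 52, 45.8, 85.9 and 54.6 CPM in Lyve1-type cells. It rose by 2.19 (SE 0.26, adjusted p = 8.48e-11), and Il1rn, the antagonist of interleukin 1, rose by 2.02. Il1b was at 309, 996, 625, 729, 153 and 1114 CPM in members against 188, 0, 66.9, 183, 10.5 and 22.1 CPM in Lyve1-type cells. It was higher in members of all 6 libraries yet did not pass (3.53, SE 0.88, adjusted p = 0.0741). After thinning, Il1b was in 12.5% of members of young 1, 33.3% of young 2, 27.3% of old 1, 37.5% of old 2, 7.14% of old 3 and 51.6% of old 4. Tnf rose by 0.95, a call that 4 of the 5 fits without 1 library lost (0.45 to 0.97, adjusted p = 0.0566 to 0.469). Ccl12 fell by 2.35, and Ccl2 fell by 1.06 on the log2 scale but was lost without old 1 (adjusted p = 0.156) and old 3 (0.154). Of 6 costimulation genes Icosl (1.49), Tnfsf9 (1.33) and Cd83 (0.79) rose (median 0.66), while Cd86 was at 0.11, Cd80 at 0.53 and Cd40 at -0.55 without a call. None of these 3 rises held in every fit that left out 1 library. Of 13 tested interferon-stimulated genes 3 fell (median -0.54) and of 14 immediate early and heat shock genes 2 fell (median -0.06), and none of these 5 held in every such fit either.

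Members were not all alike. In old 3, members with at least 2000 UMIs were thinned to that depth, which left 76 cells and dropped 22. Mmp12 was seen in 17 of them, of which 12 had Cx3cr1, against 5 of 59 cells without Mmp12. Ccr2 was in 1 of the 17 and in 38 of the 59, and Retnla, a secreted protein of alternative activation, was in 1 of the 17 and in 24 of the 59. Fn1 (fibronectin) was in all 25 cells with Retnla and in 9 of 51 without it, and Lpl was in 22 and 20 of these. Of the cells with Mmp12, 4 of 17 had Fn1, against 30 of 59 without Mmp12. Cells with Mmp12 and cells with Ccr2 or Retnla were therefore mostly different cells in old 3, while the split was weaker for Fn1. In old 4, with 27 such members and 4 dropped, Mmp12 was in 6 cells, none of which had Ccr2, against 14 of 21 without Mmp12. None of those 6 had Retnla, against 10 of 21, and all 10 cells with Retnla had Ccr2, against 4 of 17 without it. Cx3cr1, which went with Mmp12 in old 3, was in 2 of those 6 and in 4 of the 21. These counts are a description, with the genes chosen after their class values had been seen, and with cells of 1 mouse that are not replicates. Retnla itself was not called between classes in sum by edgeR (-0.01, SE 0.47, adjusted p = 0.992). It was in 26.4% of thinned members and 50.7% of Lyve1-type cells, and in a lower share of members in each of the 6 libraries.

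Markers of other cell types were also summed in members, with hemoglobin the highest. Summed erythroid genes were at 74.6, 747, 19.2, 43210, 10000 and 22.8 CPM in members of the 6 libraries, and at 43811, 78404, 4106, 96771, 106240 and 2461 CPM in the free RNA. Old 2 and old 3 were high in both. Their part in the results was not tested. B cell markers were at 67.3 to 428 CPM in members (360 to 1494 in free RNA), fibroblast markers at 107 to 747 (720 to 4635) and neutrophil markers at 0 to 32 (1.05 to 1566). Endothelial markers were at 0 to 991 CPM in members, and the 991 of old 4 was above its free RNA (376) and its Lyve1-type cells (141). T and NK cell markers were at 498 CPM in young 2, which is 2 UMIs, against 35.5 in its free RNA, at 79.2 in old 2 against 37.1, at 9.13 in old 4 against 1.57 and at 0 to 4.40 in the others. Their part in the results was not tested either. No UMI of the 7 genes of other lineages was seen in 241 members (78.5%), and 6 members (1.95%) were marked as doublets from scrublet scores. In young 1, old 1 and old 2 the automatic cutoff of scrublet marked very few cells. There the highest scores were marked up to an expected share instead. The marked members were 5 in young 1 and 1 in old 2. Without cells that held a UMI of those 7 genes, 487 genes were higher and 508 lower in members, and without the marked doublets 528 and 563.

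With age, few genes of the members passed. Since only young 1 had 10 members among the young mice, libraries with at least 5 members were used, which kept young 2 with its 6 cells and 4018 UMIs. There 1 UMI is worth 249 CPM. Of 5656 genes tested by edgeR none (0%) was higher and 6 (0.106%) were lower in old mice at an adjusted p under 0.05, with 370 (6.54%) at an unadjusted p under 0.05. Under the threshold of the study, an unadjusted p under 0.05 and more than 2-fold, 298 were higher (5.27%) and 72 lower (1.27%). The median log2 fold change over all genes was 0.36 and became 0.17 without TMM scaling, so values are to be read against that shift. DESeq2 called 0 genes, leaving out young 1 gave 0 and leaving out young 2 gave 1. Young 1, young 2 and old 2 shared 131 to 215 cell barcodes in each pair. They were coded as 1 barcode set, a grouping that no label gives. With this set as a covariate no gene was called, while with sex as a covariate 2 were. The sex covariate took old 1 as male, the description that its RNA went against. Both young libraries are in the set, so with it as a covariate age rests on old 2 alone and few calls were possible.

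The genes called with age rested mainly on young 1. Gm10736, a predicted gene, had 112, 2, 4, 5, 2 and 1 UMIs (-5.14, SE 0.85, adjusted p = 7.32e-06), and Lyve1-type cells had 96, 2, 5, 6, 1 and 3. Ndufs3, a subunit of respiratory complex I, had 60, 0, 4, 1, 19 and 6 UMIs (-3.83, adjusted p = 0.0015). Without young 1, whose removal leaves young 2 as the only young library, the median over all genes was 6.18, so fitted values of that fit give no direction. Ndufs3, without a UMI in young 2, was at 5.67 there. Fcna had 16, 1, 0, 6, 5 and 0 UMIs (-3.50, adjusted p = 0.0143) and was lost without old 3 (-2.86, adjusted p = 0.71) or old 4 (-2.98, adjusted p = 0.295). Fcna belongs to the Lyve1-type program, and the part of the shallower young members in its call was not tested. Gm13588, a predicted gene, had 22, 2, 1, 6, 0 and 6 (-3.39, adjusted p = 0.0143) and was lost without young 2, old 3 or old 4 (-3.56 to -2.45) and without young 1. Adamts6, a secreted protease, had 27, 1, 0, 2, 21 and 8 (-3.12, adjusted p = 0.0143) and was lost without young 1 (adjusted p = 0.614) or old 1 (-2.85, adjusted p = 0.0529). Gm10736 was lost without young 1 (adjusted p = 0.607) or young 2 (-5.88, adjusted p = 0.944).

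Across both classes, in libraries with at least 5 cells of each, the age difference differed between members and Lyve1-type cells for 21 of 7583 genes (0.277%). Among genes that rose between the classes, those named next were not called with age by edgeR. Mmp12 was at 1.23 (SE 0.88, adjusted p = 0.875), H2-DMb1 at 0.71 (SE 0.82), Cxcl16 at 1.46 (SE 0.93), Itgax at 1.80 (SE 1.02) and Ccr2 at 0.22 (SE 0.78). With errors of this size, differences of more than 2-fold in either direction could be missed at this depth. Summed matrix and growth factor genes were at 1492 and 747 CPM in the young and at 2616, 1727, 1592 and 1767 CPM in the old libraries. All 4 old libraries were above both young ones, which is the smallest p that 2 against 4 allows (two-sided exact permutation p = 0.133), and 15.2% of all genes were arranged so. The Lyve1-type program was at 3612 and 2987 CPM in the young and at 2683, 2488, 2034 and 2004 in the old, again without overlap (p = 0.133, exact), as for 5.16% of genes. Below 1000 UMIs, a cell passed the 0.1% limit only without any UMI of Lyve1, Folr2, Cd163 and F13a1. Members under 1000 UMIs numbered 34 in young 1, 6 in young 2, 7 in old 1, 23 in old 2, 11 in old 3 and 1 in old 4. The part of depth in the level of this program was not tested. Groups overlapped for the class II loading list (3378 and 5226 CPM in young; 4328, 2916, 5558 and 3958 in old).

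Cytokine and immediate early RNA varied by library within the old group. Summed cytokine and chemokine genes were at 13255 and 15182 CPM in members of the young libraries and at 22920, 13009, 1052 and 6308 in those of old 1 to old 4. Cxcl2, a chemokine for neutrophils, was at 7778, 7466, 11109, 7019, 86.6 and 2333 CPM, and was seen in 72.5%, 83.3%, 65.9%, 62.5%, 5.1% and 45.2% of thinned members. Old 3 was the lowest on each, and its immediate early genes were low as well, at 3215 CPM against 9872 to 13735 in the other libraries. Gated cells of neither class in old 3 had 1225 CPM of the cytokine genes and 3259 of the immediate early genes, so the low level was not particular to its members. The part of tissue handling in this was not tested.

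**Figure D5:**
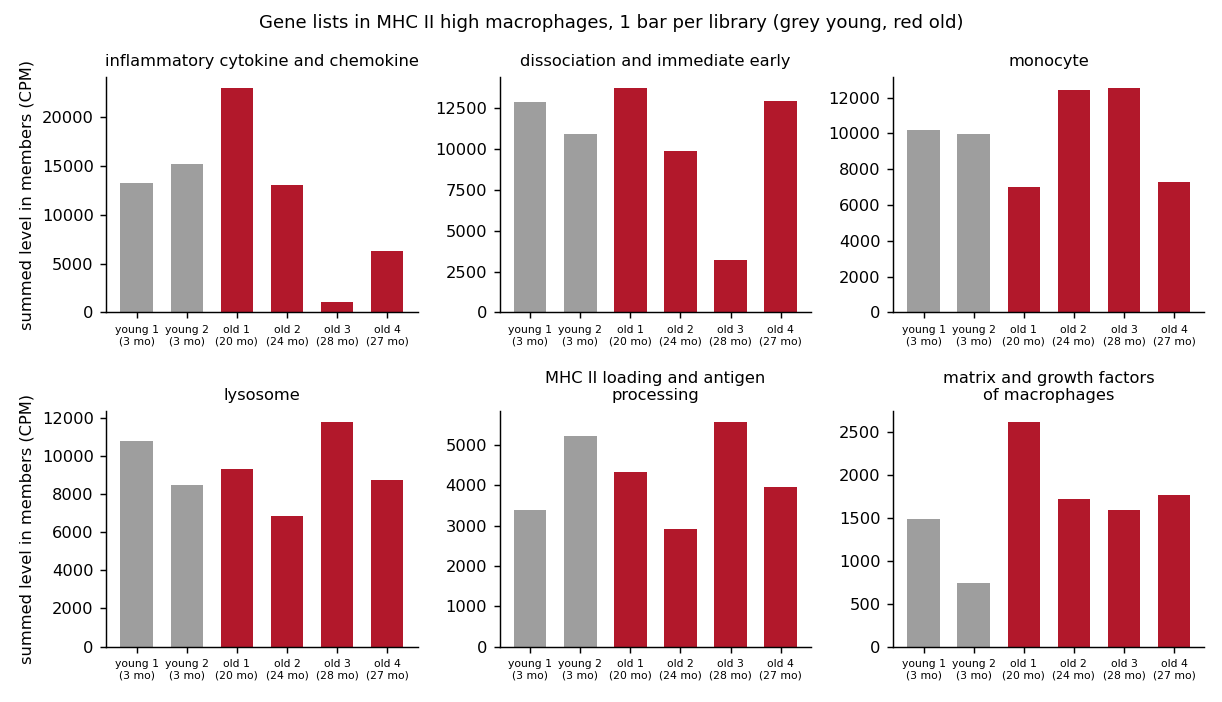
Summed CPM of 6 gene lists in the members, 1 bar per library, grey for young and red for old. Cytokine genes run from 1052 CPM in old 3 to 22920 in old 1, and the matrix list has all 4 old libraries above both young ones.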

How the data were processed

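Single cell RNA sequencing (10x Genomics 3' chemistry) of proximal PAs from 6 mice was used. Per the submitters' processing notes, Cutadapt, STAR and STARsolo were used with GRCm38.p6. The deposited matrices hold unnormalized UMI counts for each gene in each barcode, as the authors' counter wrote them. How ambiguous reads were counted is not given in the sources used here.

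Here, cells were filtered at 500 UMIs, 300 genes and 20% mitochondrial UMIs, and members were taken by the rule given above. The members, gene lists and tests were chosen with earlier results of these data known. Samples were grouped by the age in their labels, sexes came from labels or the study, and the library was the replicate, so p-values measure the spread between libraries. UMIs were summed per library and class. A gene was tested if over 5% of cells had it in 3 or more libraries, with edgeR 4.0.16 in R 4.3.3 (TMM scaling, quasi-likelihood test with robust dispersions, p adjusted after Benjamini-Hochberg over all genes tested and called under 0.05), with a library block between classes and at least 10 cells per library, or 5 for age. Genes of the rule stayed in library sizes and were not tested. The test was tried on simulated data. Shares were compared by exact permutation of libraries, with exact Clopper-Pearson 95% intervals. No doublets were removed. Marking by scrublet scores in scanpy 1.11.5 was an alternative only, with an expected share marked in young 1, old 1 and old 2. Genes named were the 12 largest in each direction with adjusted p under 0.05, mean log2 CPM of at least 5 and 1 direction in all libraries fitted, every age call, and the lists; results of some of these genes are not reported here. Promoter sequences were read from RefSeq tables. Alternatives were DESeq2 1.42.0, no TMM, other gene and cell filters, thinning, other limits, covariates, and leaving out each library. The depth was 6355125 to 50436562 UMIs per library and 4018 to 681494 summed UMIs in members.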

Additional observations from a re-analysis of the deposited data

Results flagged for a closer look

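In groups of 4 old libraries, the limit used marks about 1 in 20 where values are normally distributed, and 56 were looked at. A gene with UMIs in only 1 of the 4 is always marked, so the marks cannot be counted against that rate. In members, 1 old library stood far from the other 3 for the summed matrix and growth factor genes (2616 CPM in old 1, next 1767), T and NK cell markers (79.2 in old 2, next 9.13), smooth muscle markers (242 in old 4, next 51.4) and mesothelium markers (47.5 in old 2, with 0 in the others). Among named genes the same held for Dcstamp (183 CPM in old 4, next 51.4), F11r (1093 in old 2, next 77.6), Cd209b (7.34 in old 3, others 0), Coro2b (1.47 in old 3, others 0), Fcna (95.1 in old 2, next 7.34), Adamtsl5 (15.8 in old 2, next 1.47) and Gm49144 (4.40 in old 3, others 0). Adamts6 was at 0 CPM in old 1 and at 30.8 or more in the other old libraries. Several of these lower genes rest on 1 to 6 UMIs.

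The age difference was tested for a difference between members and Lyve1-type cells in libraries with at least 5 cells of both classes, a setting chosen after seeing the data because young 2 had 6 and 8 cells. By the interaction term of edgeR, 21 of 7583 genes (0.277%) passed, 11 with a more positive difference in members and 10 with a more negative one. Il1b was at 309 and 996 CPM in young and 625, 729, 153 and 1114 in old members, and at 188, 0, 66.9, 183, 10.5 and 22.1 CPM in Lyve1-type cells in the same order (difference of differences 3.09, SE 0.67, adjusted p = 0.00381). Ccl8, a monocyte chemokine, had 18, 0, 0, 3, 67 and 0 UMIs in members and 31, 3, 200, 190, 27994 and 989 in Lyve1-type cells (-6.06, SE 0.80, adjusted p = 2.09e-10). Cd9, a tetraspanin, had 13, 0, 96, 44, 209 and 73 UMIs in members and 15, 2, 1, 14, 109 and 71 in Lyve1-type cells (3.25, SE 0.73, adjusted p = 0.00626). These 3 were named after their values were seen, and both classes share their mice.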

How the results depend on the processing

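Counts of genes between the classes (581 higher, 502 lower) moved by over 1.5 times with DESeq2 (337 and 304), after thinning to 500 UMIs (134 and 160, of 2296 genes tested) and without the library block (106 and 111). With filterByExpr 357 were higher (of 3518 tested) and 396 lower. Leaving out 1 library gave 241 to 541 higher and 243 to 580 lower, the fewest without old 3 and without old 4. The 11 other settings of this comparison, and 3 of those fits, stayed within 1.5 times of both counts. The cause was not tested beyond the smaller number of genes or libraries that thinning, filterByExpr and leaving out a library imply. 

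Of 88 named or list genes called between classes, 88 kept their call without TMM, 74 with DESeq2, 65 against Lyve1-type cells under 0.5% class II, 50 after thinning (21 were not tested there), 40 without the block, and 58 to 83 without 1 library. Adgre1 reversed to 0.0048 after thinning.

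The 6 genes lower with age became 0 with DESeq2, filterByExpr, at least 1000 UMIs and 500 genes, or the barcode set as covariate, 17 with no gene filter, 3 without cells holding other-lineage UMIs, 2 with sex as covariate, and 1 after thinning or (added after seeing the data) with at least 10 cells. Leaving out 1 library gave 0 to 8. None was higher except 2 after thinning. Ndufs3 was at 5.67 without young replicate 1, where the median over all genes was 6.18 and Ndufs3 had no UMI in the remaining young library, so its sign there gives no direction. It was at -4.52 without young replicate 2. The share difference ran from -6.90 to 11.1 percentage points without 1 library, reversing without young replicate 2 (-6.90) and old replicate 1 (-4.55), and from 1.57 to 4.75 otherwise. Requiring a C1q UMI, also added later, gave 541 and 453 genes between classes and 6 with age.

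The interaction at 10 cells was not run, since 1 young library qualified, nor were its alternatives. Where an arm is left with 1 library, that library is assumed to vary like the others. Young 2 (4018 UMIs in members) limits every age value. No paired analysis was possible because the libraries of both ages come from different mice and their labels carry no replicate numbers.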

Other observations

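The C1q-negative MHC II cells, the 132 cells with class II RNA and no UMI of the 4 gate genes, held more of several leukocyte genes than members at the same depth of 500 UMIs. Plac8 was in 17.4% of them and 0.977% of members, Flt3 in 9.09% and 0.977%, and Ccr2 in 28% and 17.3%. Il1b was in 26.5% and 21.2%, and H2-DMb1 in 15.9% and 21.8%. The 214 gated cells in neither class had Fn1 in 66.8% and Cxcl2 in 66.4%, against 26.7% and 45.9% of members, and Ccr2 in 0.935% against 17.3%. No test was made between these classes, whose makeup by library differs: 51 of the C1q-negative cells came from young 1 and 6 from old 4.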
